A study of Mustela putorius furo with 9 samples.

Results

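Centrosomes and cilia share a structure, the centriole, and the genes described here build and serve both. They were chosen by name: every gene of the deposited table whose symbol begins with CEP, IFT or BBS followed by a digit. This gave 57 of 28494 listed genes, of which 35 are CEP genes (centrosomal proteins), 14 are IFT genes (intraflagellar transport) and 8 are BBS genes (Bardet-Biedl syndrome). All 57 symbols also stood in a RefSeq gene table of another assembly, which held 3 further symbols of this form that are not analysed here. Levels are in FPKM, a fragment count divided by gene length and library depth. A gene was tested where 3 or more libraries reached 1 FPKM, and 55 of the 57 did: 34 CEP, 13 IFT and 8 BBS genes. CEP295NL, with 0 to 3 fragments per library, and IFT81, with 18 to 28 fragments and at most 0.505 FPKM, were left untested.

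RNA was measured in 9 libraries of NBL-7 cells grown in DMEM with serum, a line that the labels call ferret lung epithelial, to study exposure to particulate matter. A mink lung line goes by that name too, and no check of the species was made. The 3 libraries titled Ep1 are labelled untreated, the 3 titled Ep2 are labelled 250 µg/mL, and the 3 titled PBS1 are labelled 500 µg/mL. Since PBS commonly stands for a vehicle buffer, that title does not match its treatment label. Every pair of groups was compared for this reason, with the title as the name. All groups share the line and the medium, and a duration of exposure is not given in the labels. The stem PBS is carried by 3 columns of the deposited values, and they are called column PBS1, column PBS2 and column PBS3 here, since they cannot be matched to single samples of the PBS1 group. Whether replicates were separate cultures is not labelled, and the p-values therefore reflect a spread between libraries that may be technical.

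The centriole is a short barrel of microtubules. At the centrosome a pair of centrioles recruits the pericentriolar material that nucleates microtubules, and each centriole is copied once per cell cycle. In a resting cell the older centriole can dock at the membrane through its distal appendages and become the basal body of a primary cilium. IFT complexes then carry cargo along the cilium: IFT-B drives transport towards the tip and IFT-A the return, while the BBSome moves membrane receptors out of the cilium. Airway epithelium also contains multiciliated cells with many motile cilia, whereas most other lung epithelial cells carry a primary cilium or none.

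Libraries held 12469849 to 13533480 fragments, worked out from the deposited values. A single fragment on a gene of 1 kilobase then amounts to 0.0739 to 0.0802 FPKM. The library Ep1_1 stood nearer to the PBS columns than to the other Ep1 libraries: across the 11840 tested genes, which are not independent, its log2 levels correlated at 0.992 to 0.994 with the 3 PBS columns and at 0.991 and 0.990 with Ep1_2 and Ep1_3. Calls of centrosome and cilium genes that were gained or lost without it are given below. Of 12 lung and airway epithelial markers, KRT7 ranged from 764 to 1126 FPKM, KRT19 from 156 to 276 FPKM and KRT8 from 131 to 200 FPKM over the libraries, and NKX2-1 reached 8.05 to 15.5 FPKM. EPCAM, KRT5, SFTPC and AQP5 were listed at 0 in all libraries. CDH1 was at most 0.135 FPKM, KRT18 at most 0.0458, SFTPB at most 0.0328 and SCGB1A1 at most 1.31 FPKM. Several markers of this list were thus at or near 0 in cells labelled epithelial. The genome build is not settled, and its part in these low values was not tested. Among the 7 multiciliated cell markers, FOXJ1, the transcription factor that switches on motile ciliogenesis, was at most 0.231 FPKM, while SPAG6 stood at 14.3 to 19.6 FPKM and DNAH5 at 4.29 to 5.35 FPKM. RSPH1 and PIFO were listed at 0 in all libraries, DNAI1 was at most 0.0587 FPKM and TPPP3 at most 0.092 FPKM. SPAG6 and DNAH5 thus made up nearly all of the summed level of that list. The sum was 19.7 to 24.1 FPKM in Ep1, 22.5 to 24.3 FPKM in Ep2 and 19.1 to 23.2 FPKM in PBS1. In bulk samples, fewer cells of a type and less RNA per cell cannot be told apart.

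Levels per gene length ran over a wide range. The highest mean over the 9 libraries was that of CEP57 at 57.5 FPKM, followed by IFT57 at 48.8, IFT74 at 33.5, CEP170 at 32.4, CEP55 at 30.3 and IFT52 at 25.8 FPKM. The lowest tested means were those of CEP126 at 1.31, CEP85L at 1.51 and BBS10 at 1.52 FPKM. The median of the gene means was 6.85 FPKM for CEP genes, 10.8 FPKM for IFT genes and 4.61 FPKM for BBS genes, against 12.0 FPKM for all tested genes. Means under 5 FPKM were found for 10 CEP genes and 4 BBS genes, but for no tested IFT gene. Within the BBSome, BBS2 stood apart at a mean of 17.1 FPKM, while the means of BBS4, BBS7, BBS5 and BBS9 lay between 4.13 and 5.22 FPKM and that of BBS1 was 2.25 FPKM. The 2 subunits that pair in the IFT-B core were unlike in listed level: IFT74 averaged 33.5 FPKM and its partner IFT81 0.455 FPKM. The genome build is not settled, and its part in this gap was not tested. Tested CEP genes were longer, with a median of 4711 bases, than the IFT and BBS genes together (2452 bases) and all tested genes (2818 bases).

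**Figure D1:**
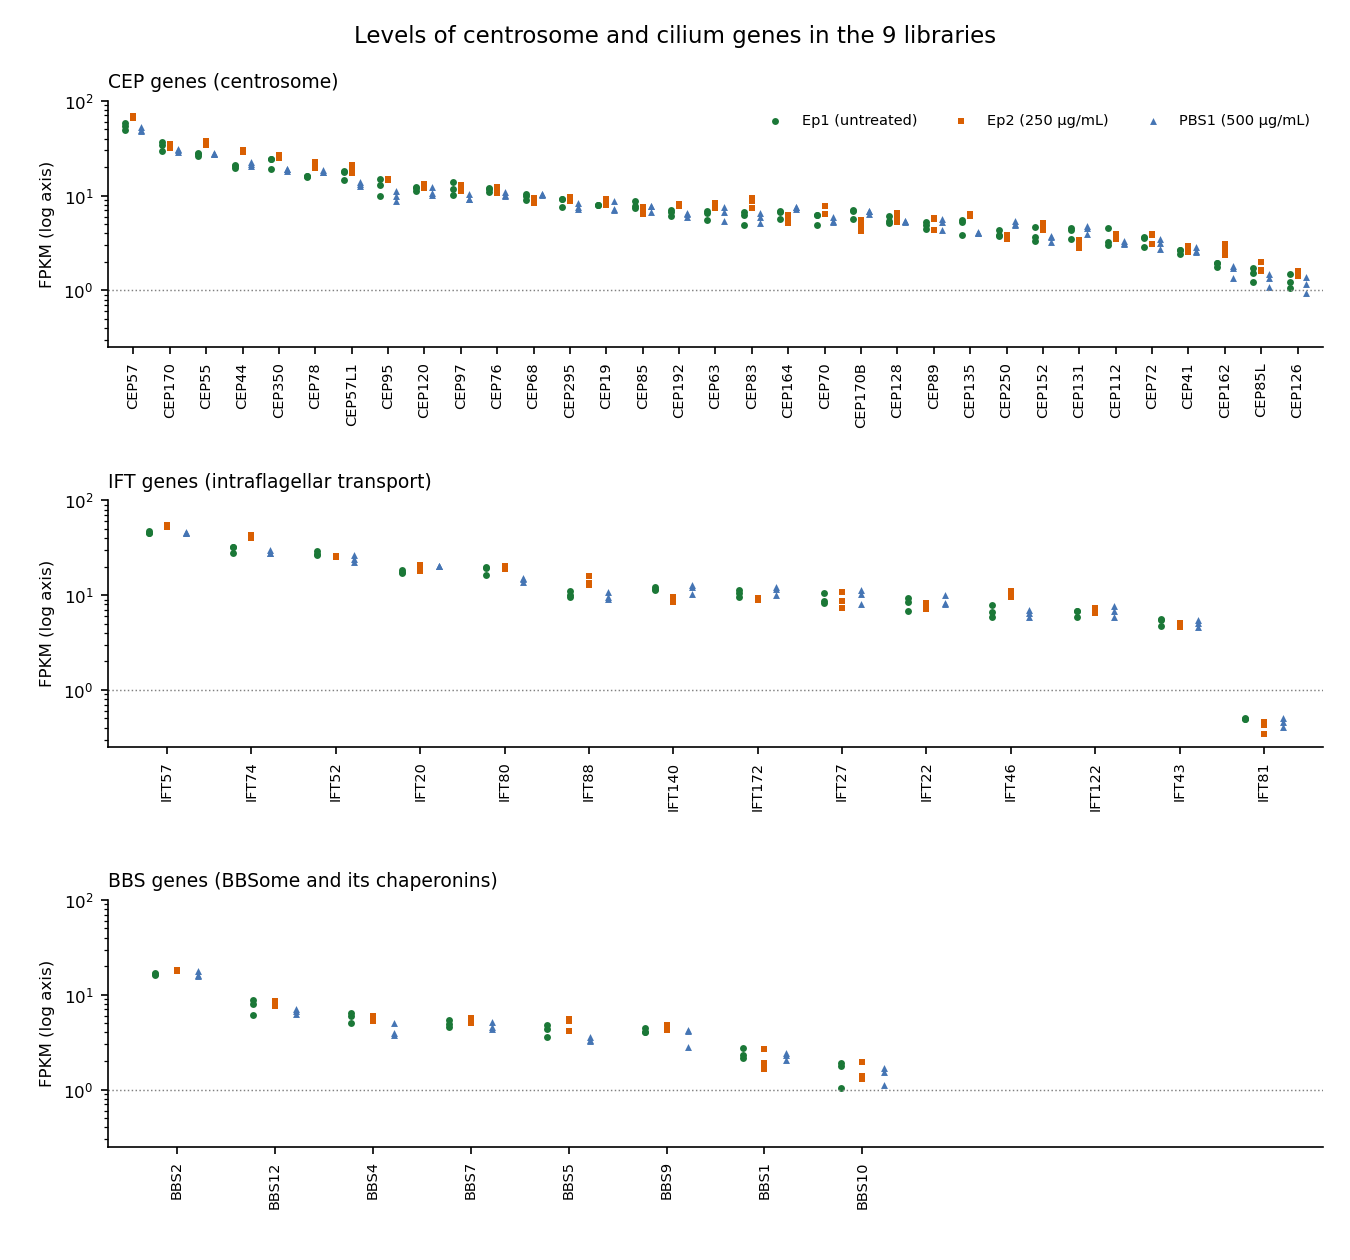
FPKM (log axis) of the CEP, IFT and BBS genes named in the text, CEP295NL left out, in each of the 9 libraries; green circles are Ep1, orange squares Ep2 and blue triangles PBS1, and the dotted line marks 1 FPKM. CEP57 and IFT57 lie highest, and IFT81 lies below 1 FPKM in all 9 libraries.

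Ep2 minus Ep1 sets the libraries labelled 250 µg/mL against those labelled untreated. On the log2(FPKM + 1) scale, which understates the change of low genes, limma called 12 of the 55 tested genes higher in Ep2 and 2 lower at an adjusted p under 0.05. That is 25.5% of them, close to the 27.4% called among all 11840 tested genes. The direction was uneven: 21.8% of the centrosome and cilium genes were called higher and 3.64% lower, against 13.4% higher and 14% lower among all genes. CEP genes gave 8 higher and 1 lower of 34, a median difference of 0.094, and 26 differences above 0. IFT and BBS genes together gave 4 higher and 1 lower of 21, a median difference of 0.078, and 13 differences above 0. The median over all tested genes was -0.004. The CEP median was 0.149 without Ep1_3, and the IFT and BBS median was 0.011 without Ep1_1. The shares called were thus 26.5% for centrosomal and 23.8% for ciliary genes, and no test of the difference between the classes was made.

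PBS1 minus Ep2 sets the libraries labelled 500 µg/mL against those labelled 250 µg/mL. Of the 55 genes, 6 were called higher in PBS1 and 22 lower, or 50.9%, against 49.6% of all tested genes. Again the direction was uneven, with 10.9% called higher and 40% lower, against 25.4% higher and 24.2% lower among all genes. CEP genes gave 4 higher and 15 lower of 34 (55.9%) and a median difference of -0.217. IFT and BBS genes gave 2 higher and 7 lower of 21 (42.9%) and a median difference of -0.133, against 0.002 over all genes. Both comparisons use the Ep2 libraries, so they are not independent of each other, and each gene's own values are given side by side below. In FPKM + 1, folds of the called genes lay between 1.17 and 1.54 in either direction, which understates the change of low genes.

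PBS1 minus Ep1 sets the libraries labelled 500 µg/mL against those labelled untreated. None of the 55 genes was called by limma, where 17 of all tested genes were called (0.144%), 9 of them higher (0.076%) and 8 lower (0.0676%). At an unadjusted p under 0.05 there were 8 CEP genes, 4 IFT or BBS genes and 2648 genes in all. The median difference was -0.074 for CEP genes and -0.06 for IFT and BBS genes, against 0.003 over all genes, and all 8 BBS genes lay below 0. The CEP median was -0.026 without Ep1_3, -0.036 without column PBS2 and -0.118 without column PBS3. The IFT and BBS median was -0.115 without Ep1_1, -0.022 without Ep1_2 or Ep1_3 and -0.028 without column PBS1. With limma voom on the recovered fragments, which called 4.62% of all genes, CEP250 was called higher in PBS1 at a log2 difference of 0.353 and IFT80 lower at -0.334. Without the library Ep1_1, 16% of all genes were called, and with them 7 CEP and 3 ciliary genes: CEP250 was higher at 0.343, while CEP135, CEP170, CEP350, CEP57L1, CEP95, CEP97, BBS12, BBS4 and IFT80 were lower, between -0.242 and -0.455.

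**Figure D2:**
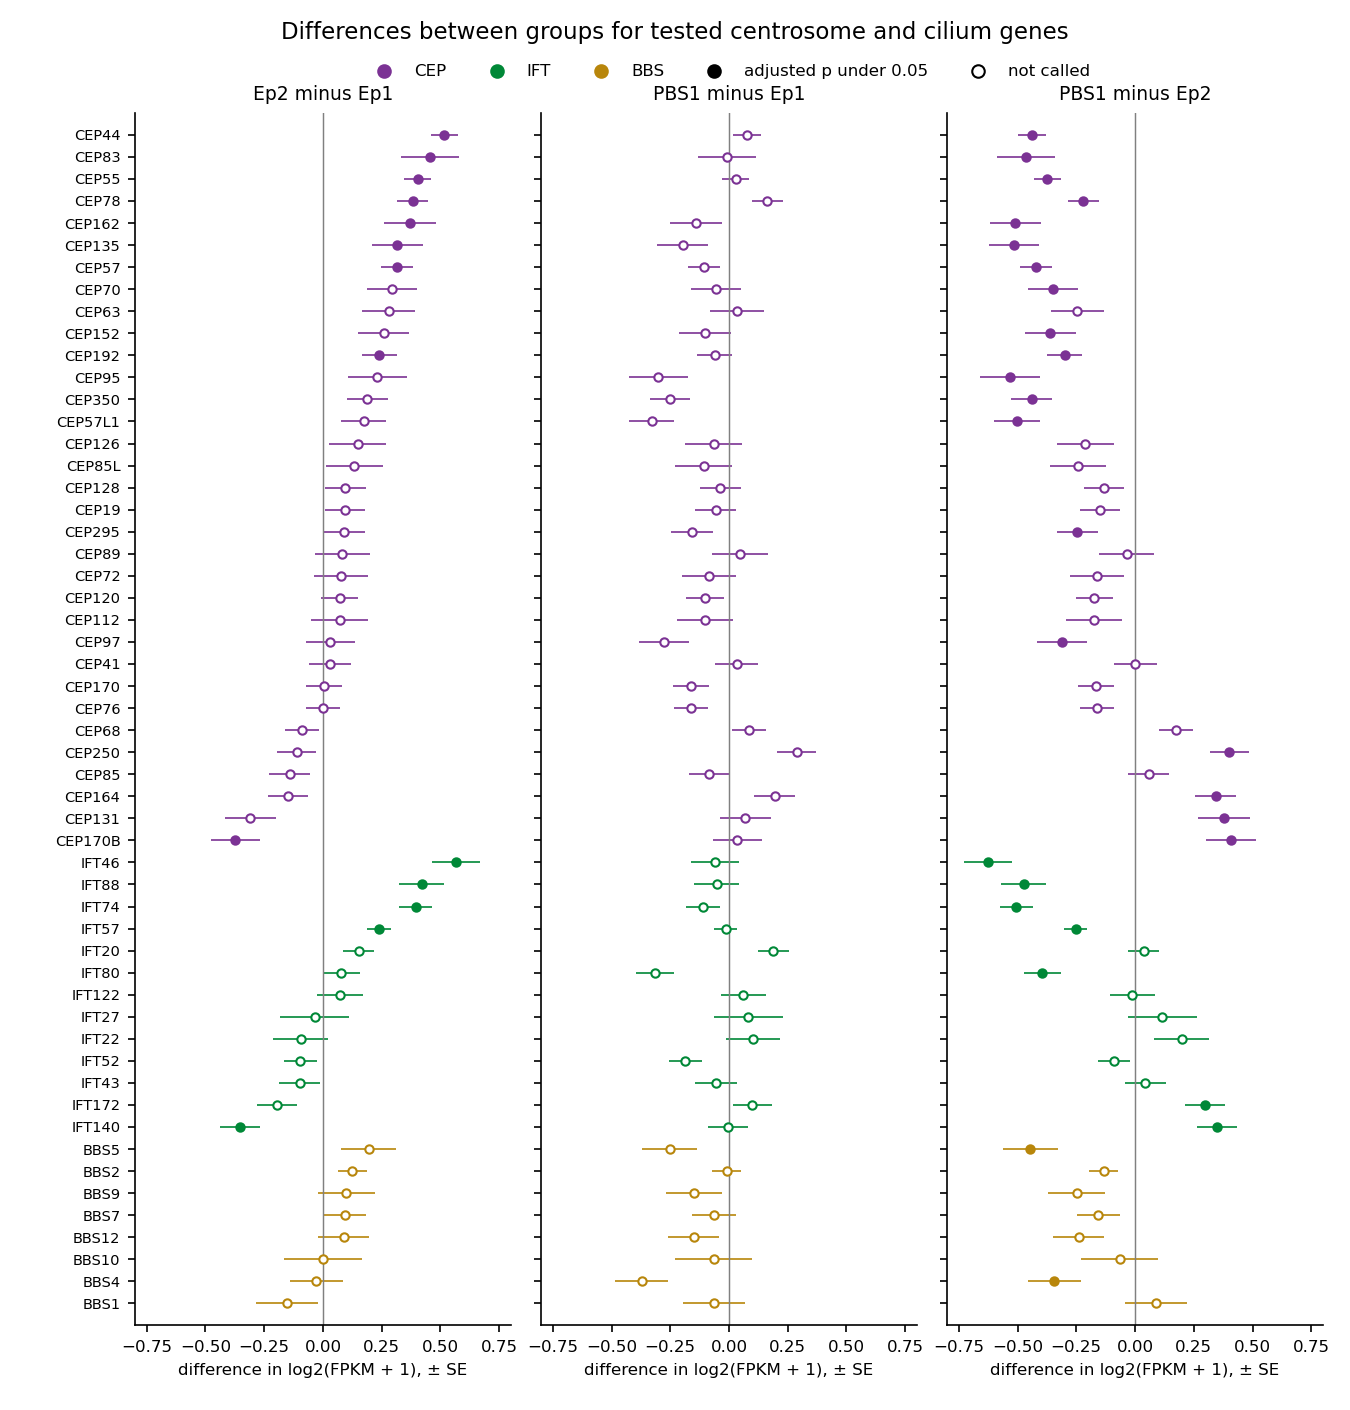
Difference in log2(FPKM + 1) with its standard error for the tested genes named in the text in the 3 comparisons, CEP genes in purple, IFT in green and BBS in ochre; filled points have an adjusted p under 0.05. In the middle panel, PBS1 minus Ep1, no point is filled, and the left and right panels hold 14 and 28 filled points.

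Of the 11 tested CEP genes that act in centriole assembly and duplication, 4 were higher and 0 lower in Ep2 than in Ep1 (median 0.239). In PBS1 minus Ep2, 0 were higher and 7 lower (median -0.30). The shares called were 36.4% and 63.6%, against 27.4% and 49.6% of all tested genes. CEP44, which helps to turn a new centriole into a working centrosome, had 19.7, 20.8 and 20.8 FPKM in the Ep1 libraries, 30.3, 29.1 and 29.6 FPKM in the Ep2 libraries, and 20.6, 22.8 and 21.5 FPKM in the PBS1 group. The Ep2 libraries lay above all others, and those of Ep1 and PBS1 overlapped. Its difference was 0.52 ± 0.059 (SE, adjusted p = 0.00291) for Ep2 minus Ep1 and -0.44 ± 0.059 (SE, adjusted p = 0.000481) for PBS1 minus Ep2. CEP57, a pericentriolar protein that keeps the daughter centriole engaged with its mother, had 49.7, 54.4 and 59.0 FPKM in the Ep1 libraries, 65.8, 67.7 and 69.5 FPKM in the Ep2 libraries, and 48.0, 49.7 and 53.3 FPKM in the PBS1 group. Again Ep2 stood above both other groups without overlap. The difference was 0.31 ± 0.069 (SE, adjusted p = 0.0107) for Ep2 minus Ep1 and -0.42 ± 0.069 (SE, adjusted p = 0.00102) for PBS1 minus Ep2. Its paralog CEP57L1 had 14.6, 18.4 and 17.9 FPKM in the Ep1 libraries, 19.2, 21.3 and 17.2 FPKM in the Ep2 libraries, and 13.3, 12.7 and 13.8 FPKM in the PBS1 group. Here the PBS1 libraries lay below those of both other groups, while Ep1 and Ep2 overlapped. CEP57L1 gave 0.17 ± 0.097 (SE, adjusted p = 0.202) for Ep2 minus Ep1, which was not called, and -0.50 ± 0.097 (SE, adjusted p = 0.00217) for PBS1 minus Ep2.

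CEP135, which links the cartwheel of a new centriole to its microtubules, had 3.82, 5.22 and 5.56 FPKM in the Ep1 libraries, 6.06, 6.40 and 6.29 FPKM in the Ep2 libraries, and 4.07, 4.13 and 4.02 FPKM in the PBS1 group. All 3 Ep2 values exceeded the Ep1 values, of which Ep1_1 was the lowest and lay below the PBS columns. The difference was 0.32 ± 0.108 (SE, adjusted p = 0.0498) for Ep2 minus Ep1 and -0.52 ± 0.108 (SE, adjusted p = 0.00319) for PBS1 minus Ep2. CEP192, the scaffold that gathers pericentriolar material and recruits the duplication kinase PLK4, had 6.11, 6.69 and 7.02 FPKM in the Ep1 libraries, 7.67, 8.13 and 8.10 FPKM in the Ep2 libraries, and 6.56, 5.94 and 6.37 FPKM in the PBS1 group. Ep2 did not overlap with the other groups, which overlapped with each other. CEP192 gave 0.24 ± 0.074 (SE, adjusted p = 0.0357) for Ep2 minus Ep1 and -0.30 ± 0.074 (SE, adjusted p = 0.00718) for PBS1 minus Ep2. CEP152, the other recruiter of PLK4, had 3.31, 3.65 and 4.63 FPKM in the Ep1 libraries, 4.88, 4.33 and 5.17 FPKM in the Ep2 libraries, and 3.20, 3.63 and 3.70 FPKM in the PBS1 group. The ranges of Ep1 and Ep2 overlapped, and its difference was 0.26 ± 0.11 (SE, adjusted p = 0.102) for Ep2 minus Ep1. PBS1 lay below Ep2 throughout, at -0.36 ± 0.11 (SE, adjusted p = 0.0199).

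CEP295, also needed for the conversion of centrioles into centrosomes, had 7.58, 9.18 and 9.26 FPKM in the Ep1 libraries, 9.39, 9.66 and 8.75 FPKM in the Ep2 libraries, and 7.53, 7.19 and 8.27 FPKM in the PBS1 group. PBS1 was below Ep2 without overlap, at -0.25 ± 0.088 (SE, adjusted p = 0.0374), and Ep2 minus Ep1 gave 0.09 ± 0.088 (SE, adjusted p = 0.468). The other 4 genes of this role, CEP63, CEP76, CEP85 and CEP120, were called in no comparison with all 9 libraries. Their differences ranged from -0.14 to 0.28 for Ep2 minus Ep1 and from -0.25 to 0.06 for PBS1 minus Ep2. In PBS1 minus Ep2, CEP63 was called without column PBS1 and CEP120 without column PBS3. CEP63, the partner of CEP152, came nearest in Ep2 minus Ep1, at 0.28 ± 0.113 (SE, adjusted p = 0.0883).

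Genes of the appendages and of the linker between centrioles were split in direction. Of 8 tested, 1 was higher and 1 lower in Ep2 than in Ep1 (25%, against 27.4% of all genes, median -0.042). In PBS1 minus Ep2, 3 were higher and 1 lower (50%, against 49.6% of all genes, median 0.069). CEP83, which starts the assembly of the distal appendages, had 4.90, 6.65 and 6.30 FPKM in the Ep1 libraries, 7.32, 8.80 and 9.45 FPKM in the Ep2 libraries, and 6.62, 5.88 and 5.17 FPKM in the PBS1 group. Ep2 was the highest group without overlap, and Ep1_1 was the lowest library. The difference was 0.46 ± 0.123 (SE, adjusted p = 0.0217) for Ep2 minus Ep1 and -0.47 ± 0.123 (SE, adjusted p = 0.0102) for PBS1 minus Ep2. CEP164, the distal appendage protein on which later steps of ciliogenesis depend, had 6.87, 6.74 and 5.70 FPKM in the Ep1 libraries, 5.17, 5.74 and 6.21 FPKM in the Ep2 libraries, and 7.56, 7.60 and 7.31 FPKM in the PBS1 group. The PBS1 libraries lay above all others, and Ep1 and Ep2 overlapped. CEP164 gave -0.15 ± 0.087 (SE, adjusted p = 0.221) for Ep2 minus Ep1 and 0.34 ± 0.087 (SE, adjusted p = 0.00832) for PBS1 minus Ep2, the opposite sign to CEP83.

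CEP250, the main protein of the linker that tethers the 2 centrioles, had 4.38, 3.83 and 3.78 FPKM in the Ep1 libraries, 3.47, 3.85 and 3.54 FPKM in the Ep2 libraries, and 4.95, 5.39 and 4.96 FPKM in the PBS1 group. It too was highest in PBS1, without overlap with Ep1 or Ep2. Its difference was 0.40 ± 0.083 (SE, adjusted p = 0.00303) for PBS1 minus Ep2, 0.29 ± 0.083 (SE, adjusted p = 0.107) for PBS1 minus Ep1 and -0.11 ± 0.083 (SE, adjusted p = 0.337) for Ep2 minus Ep1. CEP170B, a paralog of the subdistal appendage protein CEP170, had 7.06, 6.94 and 5.60 FPKM in the Ep1 libraries, 5.53, 4.73 and 4.20 FPKM in the Ep2 libraries, and 6.91, 6.36 and 6.82 FPKM in the PBS1 group. Ep2 was the lowest group, separated from Ep1 only narrowly, at 5.53 FPKM for its highest library against 5.60 FPKM for Ep1_3. CEP170B gave -0.37 ± 0.105 (SE, adjusted p = 0.0254) for Ep2 minus Ep1 and 0.41 ± 0.105 (SE, adjusted p = 0.00879) for PBS1 minus Ep2. CEP170 itself, the most abundant gene of this role, had 29.9, 34.4 and 36.7 FPKM in the Ep1 libraries, 35.4, 33.5 and 32.1 FPKM in the Ep2 libraries, and 28.8, 29.9 and 31.0 FPKM in the PBS1 group. With all 9 libraries it was not called, with 0.00 ± 0.077 (SE, adjusted p = 0.977) for Ep2 minus Ep1 and -0.17 ± 0.077 (SE, adjusted p = 0.0956) for PBS1 minus Ep2. Without Ep1_1 it was called in PBS1 minus Ep2 (limma adjusted p = 0.0328). CEP68, CEP89 and CEP128 were not called either, except that CEP68 was called higher in PBS1 than in Ep2, at 0.199 (adjusted p = 0.0433), with the length trend removed.

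Among the 8 tested CEP genes of ciliogenesis and the transition zone, 2 were higher and 0 lower in Ep2 than in Ep1 (median 0.062). In PBS1 minus Ep2, 1 was higher and 3 were lower (median -0.181). The shares called were 25% and 50%, against 27.4% and 49.6% of all tested genes. CEP78, which takes part in removing the cap from the centriole before a cilium grows, had 16.2, 15.9 and 16.0 FPKM in the Ep1 libraries, 19.5, 22.5 and 21.7 FPKM in the Ep2 libraries, and 18.8, 17.6 and 17.7 FPKM in the PBS1 group. The 3 groups did not overlap, with Ep1 the lowest and Ep2 the highest. CEP78 gave 0.38 ± 0.066 (SE, adjusted p = 0.00514) for Ep2 minus Ep1, 0.16 ± 0.066 (SE, adjusted p = 0.183) for PBS1 minus Ep1 and -0.22 ± 0.066 (SE, adjusted p = 0.0178) for PBS1 minus Ep2. CEP162, which binds the microtubules at the base of the cilium, had 1.96, 1.93 and 1.78 FPKM in the Ep1 libraries, 2.39, 2.75 and 3.10 FPKM in the Ep2 libraries, and 1.36, 1.79 and 1.74 FPKM in the PBS1 group. Its level was low, at 109 to 243 fragments per library, and Ep2 lay above the other groups. The difference was 0.37 ± 0.11 (SE, adjusted p = 0.0311) for Ep2 minus Ep1 and -0.51 ± 0.11 (SE, adjusted p = 0.00374) for PBS1 minus Ep2.

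CEP97, part of the cap that holds back cilium growth, had 10.1, 11.9 and 14.0 FPKM in the Ep1 libraries, 12.8, 12.5 and 11.2 FPKM in the Ep2 libraries, and 9.29, 9.15 and 10.5 FPKM in the PBS1 group. Ep1 and Ep2 overlapped and PBS1 lay below Ep2, with 0.03 ± 0.106 (SE, adjusted p = 0.848) for Ep2 minus Ep1 and -0.31 ± 0.106 (SE, adjusted p = 0.0314) for PBS1 minus Ep2. CEP131, a protein of the centriolar satellites, had 4.60, 4.38 and 3.48 FPKM in the Ep1 libraries, 2.83, 3.21 and 3.40 FPKM in the Ep2 libraries, and 3.89, 4.55 and 4.74 FPKM in the PBS1 group. Ep2 was the lowest group without overlap, and PBS1 exceeded it by 0.38 ± 0.109 (SE, adjusted p = 0.0147), while Ep2 minus Ep1 was not called at -0.31 ± 0.109 (SE, adjusted p = 0.0556). CEP19, CEP41 and CEP126 were called in no comparison by limma with all 9 libraries, and voom called CEP126 lower in PBS1 than in Ep2, at a log2 difference of -0.376 (adjusted p = 0.041).

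Of the 4 CEP genes of cytokinesis and mitosis, 1 was higher in Ep2 than in Ep1 (median 0.214) and 2 were lower in PBS1 than in Ep2 (median -0.295). That is 25% and 50%, against 27.4% and 49.6% of all tested genes. CEP55, which sits at the midbody and recruits the machinery that cuts daughter cells apart, had 26.0, 28.1 and 27.1 FPKM in the Ep1 libraries, 35.8, 34.6 and 38.0 FPKM in the Ep2 libraries, and 27.6, 28.1 and 27.2 FPKM in the PBS1 group. Ep2 lay above the other groups, and Ep1 and PBS1 overlapped. CEP55 gave 0.40 ± 0.058 (SE, adjusted p = 0.00425) for Ep2 minus Ep1 and -0.37 ± 0.058 (SE, adjusted p = 0.000803) for PBS1 minus Ep2. CEP70, a centrosomal protein of spindle assembly, had 4.93, 6.31 and 6.24 FPKM in the Ep1 libraries, 7.85, 7.85 and 6.37 FPKM in the Ep2 libraries, and 5.24, 5.40 and 6.01 FPKM in the PBS1 group. It was lower in PBS1 than in Ep2 by -0.35 ± 0.107 (SE, adjusted p = 0.0198), and Ep2 minus Ep1 was not called at 0.29 ± 0.107 (SE, adjusted p = 0.0623). CEP72 and CEP85L were called in no comparison by limma with all 9 libraries, and voom called CEP85L lower in PBS1 than in Ep2, at a log2 difference of -0.404 (adjusted p = 0.038).

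The other tested CEP genes, 3 in number, fell outside these roles. CEP350, a large centrosomal protein that stabilises microtubules, had 19.0, 24.1 and 24.4 FPKM in the Ep1 libraries, 24.7, 26.6 and 25.6 FPKM in the Ep2 libraries, and 19.0, 18.0 and 18.9 FPKM in the PBS1 group. Ep1_1 lay with the PBS columns here, and Ep1_2 and Ep1_3 lay just below Ep2. The difference was -0.44 ± 0.087 (SE, adjusted p = 0.00245) for PBS1 minus Ep2 and 0.19 ± 0.087 (SE, adjusted p = 0.127) for Ep2 minus Ep1. CEP95 had 9.95, 12.8 and 15.0 FPKM in the Ep1 libraries, 15.0, 14.8 and 14.5 FPKM in the Ep2 libraries, and 8.76, 9.85 and 11.2 FPKM in the PBS1 group. Its Ep1 libraries overlapped with both other groups, which did not overlap with each other, and PBS1 minus Ep2 was -0.53 ± 0.126 (SE, adjusted p = 0.00587). CEP112 was called in no comparison.

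The IFT-B complex holds IFT46, whose differences for Ep2 minus Ep1 and for PBS1 minus Ep2 were the largest in size among the 55 tested genes on the log2(FPKM + 1) scale, although with voom CEP162 at -0.747 exceeded IFT46 at -0.70 for PBS1 minus Ep2. Of the 6 tested core subunits, 3 were higher and 0 lower in Ep2 than in Ep1 (median 0.18). In PBS1 minus Ep2, 0 were higher and 3 lower (median -0.282). The share called was 50% in each, against 27.4% and 49.6% of all tested genes. IFT46, a core subunit known from Chlamydomonas to carry outer dynein arms, had 5.91, 7.82 and 6.69 FPKM in the Ep1 libraries, 9.50, 11.2 and 10.9 FPKM in the Ep2 libraries, and 6.97, 5.88 and 6.54 FPKM in the PBS1 group. Ep2 stood above both other groups without overlap, and those overlapped with each other. IFT46 gave 0.57 ± 0.102 (SE, adjusted p = 0.0059) for Ep2 minus Ep1, a fold of 1.48 in FPKM + 1, and -0.63 ± 0.102 (SE, adjusted p = 0.001) for PBS1 minus Ep2. IFT74, which with IFT81 binds the tubulin cargo, had 27.9, 32.4 and 32.5 FPKM in the Ep1 libraries, 39.6, 42.7 and 40.5 FPKM in the Ep2 libraries, and 27.7, 27.8 and 30.1 FPKM in the PBS1 group. Ep2 lay above both other groups, and Ep1_1 lay with the PBS columns. IFT74 gave 0.40 ± 0.071 (SE, adjusted p = 0.00568) for Ep2 minus Ep1 and -0.51 ± 0.071 (SE, adjusted p = 0.000559) for PBS1 minus Ep2. IFT88, without which cilia fail to form in mice, had 10.1, 9.52 and 11.1 FPKM in the Ep1 libraries, 16.1, 12.9 and 13.3 FPKM in the Ep2 libraries, and 9.15, 10.8 and 9.56 FPKM in the PBS1 group. The Ep2 libraries lay above all others, with 0.42 ± 0.096 (SE, adjusted p = 0.012) for Ep2 minus Ep1 and -0.47 ± 0.096 (SE, adjusted p = 0.00267) for PBS1 minus Ep2.

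IFT52, IFT22 and IFT27, the other tested core subunits, were called in no comparison. Their differences for Ep2 minus Ep1 lay between -0.10 and -0.03, and those for PBS1 minus Ep2 between -0.09 and 0.20. IFT52, a core subunit of a high level, had 25.7, 25.7 and 25.5 FPKM in Ep2, against 29.2, 26.3 and 27.1 FPKM in Ep1. Subunits of the same complex thus differed in whether they passed the test, and the difference between them was not tested.

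The peripheral IFT-B subunits were mixed. IFT57, the most abundant IFT gene, had 45.4, 45.6 and 47.2 FPKM in the Ep1 libraries, 55.5, 52.9 and 55.4 FPKM in the Ep2 libraries, and 46.6, 44.7 and 45.6 FPKM in the PBS1 group. The Ep2 libraries lay above the others, which overlapped. IFT57 gave 0.24 ± 0.05 (SE, adjusted p = 0.009) for Ep2 minus Ep1 and -0.25 ± 0.05 (SE, adjusted p = 0.00244) for PBS1 minus Ep2. IFT80 had 16.3, 19.2 and 19.9 FPKM in the Ep1 libraries, 20.4, 18.9 and 19.3 FPKM in the Ep2 libraries, and 13.7, 15.2 and 15.0 FPKM in the PBS1 group. PBS1 was the lowest group without overlap, and Ep1 and Ep2 overlapped, with -0.39 ± 0.079 (SE, adjusted p = 0.0026) for PBS1 minus Ep2 and 0.08 ± 0.079 (SE, adjusted p = 0.485) for Ep2 minus Ep1. IFT172, which acts at the turnaround of transport at the tip, had 10.6, 9.57 and 11.5 FPKM in the Ep1 libraries, 8.96, 8.99 and 9.22 FPKM in the Ep2 libraries, and 12.3, 10.1 and 11.7 FPKM in the PBS1 group. It went the other way, with Ep2 the lowest group, at 0.30 ± 0.085 (SE, adjusted p = 0.0143) for PBS1 minus Ep2 and -0.20 ± 0.085 (SE, adjusted p = 0.105) for Ep2 minus Ep1. IFT20, which also works at the Golgi, was called in no comparison.

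IFT140, a core subunit of IFT-A and the most abundant of the 3 measured here, had 12.1, 11.4 and 11.7 FPKM in the Ep1 libraries, 9.61, 8.43 and 8.94 FPKM in the Ep2 libraries, and 12.2, 12.8 and 10.3 FPKM in the PBS1 group. Ep2 was the lowest group without overlap, and Ep1 and PBS1 overlapped. IFT140 gave -0.35 ± 0.085 (SE, adjusted p = 0.0145) for Ep2 minus Ep1 and 0.35 ± 0.085 (SE, adjusted p = 0.00668) for PBS1 minus Ep2. Its sign was opposite to that of the called IFT-B core subunits, and the difference between them was not tested. IFT122 and IFT43 were called in no comparison, with differences of 0.07 and -0.10 for Ep2 minus Ep1.

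**Figure D3:**
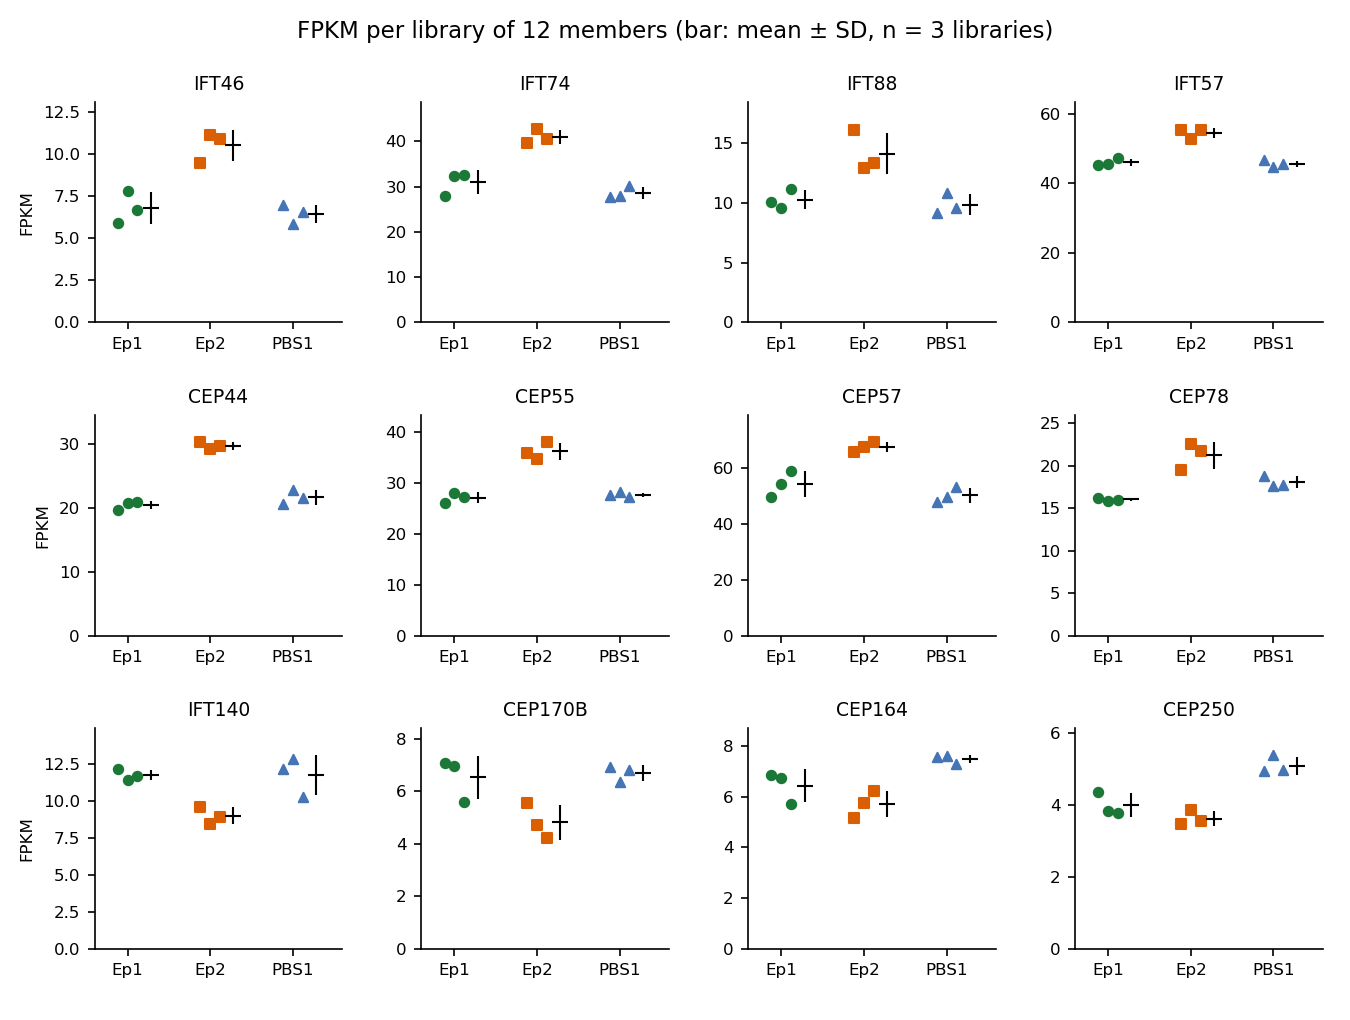
FPKM of 12 called genes in the 9 libraries, with the mean and SD of each group of 3 beside its points; green circles are Ep1, orange squares Ep2 and blue triangles PBS1, and axes start at 0. The upper 8 genes are highest in Ep2, IFT140 and CEP170B are lowest in Ep2, and CEP164 and CEP250 are highest in PBS1.

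No BBS gene was called in Ep2 minus Ep1 by limma, where the median of the 8 was 0.09, and 0 had an unadjusted p under 0.05 or were called with voom. Of all tested genes, limma called 27.4% there. In PBS1 minus Ep2, 0 were higher and 2 lower (25%, against 49.6% of all genes). BBS5, a BBSome subunit that binds membrane lipids, had 4.38, 4.80 and 3.55 FPKM in the Ep1 libraries, 4.15, 5.52 and 5.34 FPKM in the Ep2 libraries, and 3.58, 3.33 and 3.24 FPKM in the PBS1 group. PBS1 lay below Ep2 without overlap, at -0.45 ± 0.117 (SE, adjusted p = 0.00953), and Ep2 minus Ep1 gave 0.19 ± 0.117 (SE, adjusted p = 0.234). BBS4, which ties the BBSome to the centriolar satellites, had 5.03, 6.41 and 5.91 FPKM in the Ep1 libraries, 5.22, 5.67 and 6.02 FPKM in the Ep2 libraries, and 3.76, 5.06 and 3.93 FPKM in the PBS1 group. PBS1 minus Ep2 was -0.34 ± 0.112 (SE, adjusted p = 0.0256), and Ep2 minus Ep1 was -0.03 ± 0.112 (SE, adjusted p = 0.875). BBS2, the most abundant BBSome subunit, had 16.4, 17.1 and 16.2 FPKM in the Ep1 libraries, 18.0, 18.3 and 18.2 FPKM in the Ep2 libraries, and 17.7, 16.0 and 15.8 FPKM in the PBS1 group. Its Ep2 libraries lay above all others by a small step that was not called with all 9 libraries, 0.12 ± 0.062 (SE, adjusted p = 0.152) for Ep2 minus Ep1 and -0.13 ± 0.062 (SE, adjusted p = 0.0931) for PBS1 minus Ep2. BBS12, a chaperonin-like protein that helps to assemble the BBSome, had 6.10, 7.89 and 8.74 FPKM in the Ep1 libraries, 7.60, 8.62 and 7.95 FPKM in the Ep2 libraries, and 6.31, 6.68 and 7.01 FPKM in the PBS1 group. With all 9 libraries it was not called, at -0.24 ± 0.109 (SE, adjusted p = 0.0889) for PBS1 minus Ep2, and BBS10, of the same kind, gave -0.07 ± 0.164 (SE, adjusted p = 0.762). BBS12 was called there without Ep1_1 (limma adjusted p = 0.0213), without Ep1_1 and Ep2_1 together (0.0186) and in a fit to the 6 libraries of PBS1 and Ep2 (0.0256).

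Several of these calls rested on single libraries. In Ep2 minus Ep1, 8 of the 14 calls held when any 1 of the 9 libraries was left out: CEP44, CEP55, CEP57, CEP78, IFT46, IFT57, IFT74 and IFT88. CEP135 was lost in 8 of the 9 such fits, all but that without Ep1_3. CEP162 was lost without any 1 of Ep1_1, Ep1_2, Ep1_3, Ep2_2 and Ep2_3, CEP170B and CEP192 without Ep1_1, Ep1_2, Ep2_2 or Ep2_3, CEP83 without Ep1_1, Ep2_2 or Ep2_3, and IFT140 without Ep2_2 or Ep2_3. The count of CEP genes called was 4 without Ep1_1 (15.6% of all genes called), 5 without Ep1_2 (21.6%), 4 without Ep2_2 (12.7%) and 4 without Ep2_3 (10.7%), while 4 or 5 ciliary genes were called in each of these fits. Without a filter on low values, CEP135, CEP162, CEP170B, CEP192 and CEP83 were not called. A fit to the 6 libraries of Ep2 and Ep1 alone ended the calls of CEP135, CEP170B and CEP192, and CEP135 was also lost with a pseudocount of 0.1 or 0.5 and with no intensity trend. Voom added CEP131, CEP152 and CEP70, quantile normalization added CEP70, and removal of the length trend added CEP131 and CEP350. Leaving out Ep1_3 added CEP131, CEP152 and CEP95.

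In PBS1 minus Ep2, 20 of the 28 calls held when any 1 library was left out. CEP295, CEP70 and CEP97 were lost without Ep2_1, Ep2_2, column PBS1 or column PBS2, and CEP78 without Ep2_2, Ep2_3, column PBS2 or column PBS3. BBS4 was lost without Ep2_2, Ep2_3, column PBS1 or column PBS3, CEP152 without Ep2_3 or column PBS1, CEP131 without column PBS2 or column PBS3, and IFT172 without column PBS1. With no filter on low values BBS4, CEP152, CEP295, CEP70 and CEP97 were not called, and removal of each library's trend on gene length ended the calls of CEP295 and IFT172. A fit to the 6 libraries of PBS1 and Ep2 alone added CEP170 (adjusted p = 0.0402) and BBS12. Leaving out column PBS1 added CEP63 and BBS2, and leaving out column PBS3 added CEP120 and CEP19.

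The position of each family in each library was described by the median deviation of its genes from their 9-library mean, on the log2(FPKM + 1) scale. For CEP genes it was -0.12, -0.017 and 0.028 in the Ep1 libraries, 0.13, 0.16 and 0.12 in the Ep2 libraries, and -0.12, -0.13 and -0.048 in the PBS columns. The 3 Ep2 libraries were thus alike, whereas Ep1_1 lay apart from Ep1_2 and Ep1_3 and beside the PBS columns. For IFT genes it was -0.084, 0.015 and -0.010 in Ep1, 0.0020, 0.026 and 0.11 in Ep2, and -0.059, -0.051 and -0.058 in PBS1. For BBS genes it was -0.040, 0.11 and 0.10 in Ep1, 0.025, 0.13 and 0.091 in Ep2, and -0.18, -0.056 and -0.077 in PBS1. In the BBS medians the Ep1 and Ep2 libraries overlapped, and the PBS columns lay below both. Over all tested genes the median deviation stayed between -0.0020 and 0.0043 in every library.

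**Figure D4:**
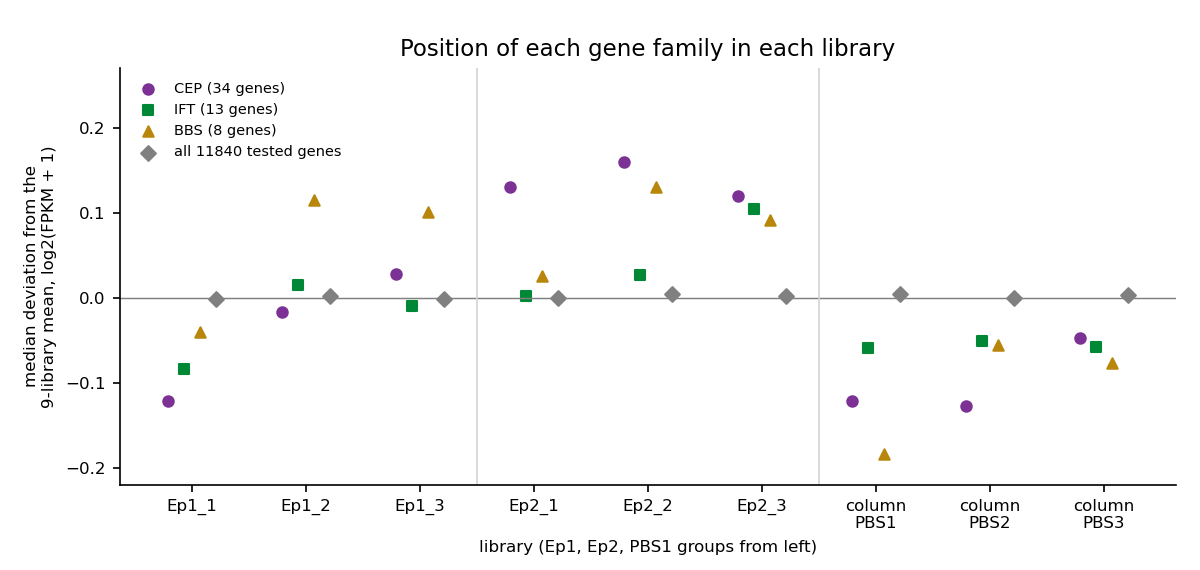
Median deviation of the tested CEP (34), IFT (13) and BBS (8) genes from their 9-library means in log2(FPKM + 1), for each library, with all 11840 tested genes in grey. The CEP medians of the 3 Ep2 libraries lie between 0.12 and 0.16, and those of Ep1_1 and the 3 PBS columns lie below 0.

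The relation of the differences to gene length was also described. Across the 34 CEP genes, which share libraries and are not independent, Spearman's rho between length and difference was -0.326 for Ep2 minus Ep1 and 0.195 for PBS1 minus Ep2, against 0.064 and -0.158 across all tested genes. For PBS1 minus Ep1 it was -0.093, against -0.228 across all tested genes. Across the 21 IFT and BBS genes rho was -0.108 for Ep2 minus Ep1, -0.219 for PBS1 minus Ep1 and 0.012 for PBS1 minus Ep2. These are descriptions with no test.

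Other genes of the same structures were read from lists of textbook members. Of 42 tested centrosome and centriole genes without the CEP prefix, 10 were higher and 3 lower in Ep2 than in Ep1 (31%, against 27.4% of all genes, median 0.108), and 6 were higher and 18 lower in PBS1 than in Ep2 (57.1%, against 49.6% of all genes, median -0.17). STIL, which with SASS6 builds the cartwheel of a new centriole, averaged 9.57 ± 0.692 FPKM in Ep2 and 6.71 ± 0.725 FPKM in Ep1 (SD, n = 3 libraries each), a log2 difference of 0.46 ± 0.090 (SE, adjusted p = 0.00734). SASS6 averaged 12.0 ± 1.01 FPKM in Ep2 and 8.99 ± 1.25 FPKM in Ep1, a difference of 0.39 ± 0.099 (adjusted p = 0.0179) that was lost without Ep2_2 or Ep2_3. NEDD1, which brings the gamma-tubulin ring to the centrosome, averaged 45.3 ± 1.81 FPKM in Ep2 and 35.6 ± 3.51 FPKM in Ep1, a difference of 0.34 ± 0.076 (adjusted p = 0.0107). In PBS1 minus Ep2 the log2 difference was -0.53 for STIL, -0.53 for SASS6 and -0.54 for NEDD1, all of them called. AKAP9, a scaffold of the Golgi and the centrosome, gave -0.54 ± 0.109 (adjusted p = 0.00274). The 3 genes lower in Ep2 than in Ep1 were ODF2 and FBF1, of the centriolar appendages, and HAUS8, of the augmin complex that branches spindle microtubules. ODF2 gave -0.26 ± 0.059 (adjusted p = 0.0116, lost without Ep2_3), FBF1 -0.35 ± 0.104 (adjusted p = 0.0309, lost without Ep1_1, Ep2_2 or Ep2_3) and HAUS8 -0.35 ± 0.092 (adjusted p = 0.0191, lost without Ep2_2 or Ep2_3). The difference for PBS1 minus Ep2 was 0.40 for ODF2, 0.48 for FBF1 and 0.46 for HAUS8, all called, and CNTROB, a protein of daughter centrioles, gave 0.51 ± 0.110 (adjusted p = 0.00378). These 4 genes were chosen after their values were seen.

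Some IFT and BBS genes go by symbols of another form. Of 15 such genes tested, 1 was higher and 0 lower in Ep2 than in Ep1 (6.67%, against 27.4% of all genes, median 0.052), and 0 were higher and 2 lower in PBS1 than in Ep2 (13.3%, against 49.6% of all genes, median -0.077). MKKS, the third chaperonin-like BBS gene, averaged 15.7 ± 0.567 FPKM in Ep2 and 11.3 ± 0.426 FPKM in Ep1, a difference of 0.44 ± 0.065 (adjusted p = 0.00441). PBS1 minus Ep2 gave -0.44 ± 0.065 (adjusted p = 0.000684) for MKKS and -0.33 ± 0.096 (adjusted p = 0.0159) for ARL6, the GTPase that recruits the BBSome to membranes. The ARL6 call was lost without Ep2_2, Ep2_3 or column PBS2. Of 8 tested ciliary motors and adaptors, none was called in Ep2 minus Ep1 by limma (median 0.054), with 0 at an unadjusted p under 0.05 and 0 with voom, while in PBS1 minus Ep2 the dynein-2 chain gene WDR34 was higher at 0.28 ± 0.074 (adjusted p = 0.0111). KIFAP3, the adaptor of the kinesin that drives IFT, was lower at -0.25 ± 0.077 (adjusted p = 0.0215) and the dynein-2 gene DYNC2LI1 at -0.35 ± 0.124 (adjusted p = 0.039). These 3 calls made up 37.5% of the motors and adaptors tested, against 49.6% of all genes. The KIFAP3 call was lost without Ep2_3, column PBS1 or column PBS3, and the DYNC2LI1 call without any 1 Ep2 library, column PBS1 or column PBS2.

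Transition zone genes, which form the gate at the base of the cilium, moved in both directions. Of 23 tested, 2 were higher and 2 lower in Ep2 than in Ep1 (17.4%, against 27.4% of all genes, median -0.004), and 3 were higher and 6 lower in PBS1 than in Ep2 (39.1%, against 49.6%, median -0.005). TMEM237 averaged 27.9 ± 1.04 FPKM in Ep2 and 21.8 ± 1.75 FPKM in Ep1, a difference of 0.34 ± 0.076 (adjusted p = 0.0109). IQCB1 averaged 47.7 ± 3.31 FPKM in Ep2 and 37.8 ± 1.57 FPKM in Ep1, a difference of 0.33 ± 0.062 (adjusted p = 0.00688). The 2 lower genes, named after their values were seen, were B9D1 at -0.26 ± 0.082 (adjusted p = 0.0416), lost in 7 of the 9 fits with a library left out, all but those without Ep1_2 or column PBS3, and INPP5E at -0.37 ± 0.107 (adjusted p = 0.0294), lost without Ep1_1, Ep1_2, Ep2_2 or Ep2_3. In PBS1 minus Ep2, TMEM237 gave -0.47 ± 0.076 (adjusted p = 0.000983), IQCB1 -0.38 ± 0.062 (adjusted p = 0.00104) and AHI1 -0.37 ± 0.105 (adjusted p = 0.0133, lost without column PBS2). B9D2 gave 0.53 ± 0.199 (adjusted p = 0.0463), although its libraries ranged from 6.46 to 9.46 FPKM in PBS1 and from 3.40 to 7.25 FPKM in Ep2 and so overlapped. That call was lost without any 1 Ep1 library, Ep2_2, Ep2_3, column PBS2 or column PBS3.

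The hedgehog pathway signals through the primary cilium in mammals, and its 8 tested genes all lay below 0 in Ep2 minus Ep1 (median -0.181) and above 0 in PBS1 minus Ep2 (median 0.234). These comparisons share the Ep2 libraries, so the 2 signs are not independent. In PBS1 minus Ep1, 3 of the 8 lay above 0 and 5 below (median -0.037). Of the 8, 1 was called in Ep2 minus Ep1 (12.5%, against 27.4% of all genes) and 4 in PBS1 minus Ep2 (50%, against 49.6%). GLI1, a transcription factor and target of the pathway, averaged 2.76 ± 0.318 FPKM in Ep2 and 3.87 ± 0.176 FPKM in Ep1, a difference of -0.38 ± 0.091 (adjusted p = 0.0145) that was lost without Ep2_2 or Ep2_3. SMO, the receptor that enters the cilium when the pathway is on, averaged 9.01 ± 0.551 FPKM in PBS1 and 6.13 ± 0.491 FPKM in Ep2, a difference of 0.49 ± 0.090 (adjusted p = 0.00167). GLI2 gave 0.46 ± 0.108 (adjusted p = 0.00552) and GPR161, which restrains the pathway, 0.43 ± 0.131 (adjusted p = 0.0186, lost without Ep2_3, column PBS1 or column PBS2) for PBS1 minus Ep2. The ligand genes SHH and IHH and the gene HHIP did not reach the level needed for testing.

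Of 26 motile cilium genes only 8 were tested, and none was called in Ep2 minus Ep1 by limma, against 27.4% of all genes. There the median was 0.112, with 1 at an unadjusted p under 0.05 and 2 called with voom. In PBS1 minus Ep2, 2 were higher and 2 lower (50%, against 49.6% of all genes, median -0.152). LRRC6, which helps to assemble dynein arms, gave -0.51 ± 0.126 (adjusted p = 0.00731) and the dynein light chain gene DNAL1 -0.41 ± 0.129 (adjusted p = 0.0224, lost without Ep2_1, Ep2_2, column PBS1 or column PBS2). MCIDAS, a regulator of multiciliated cell fate, gave 0.51 ± 0.145 (adjusted p = 0.0143) at a mean of only 1.01 ± 0.0738 FPKM in PBS1 and 0.415 ± 0.0765 FPKM in Ep2. It reached 1 FPKM only in Ep1_1 (1.261), column PBS2 (1.011) and column PBS3 (1.085). MCIDAS therefore passed the filter only through libraries outside Ep2, in part those of the group called higher, which limits this call. RFX2, a ciliary transcription factor, gave 0.25 ± 0.095 (adjusted p = 0.0488), a call lost without Ep1_2, Ep1_3, Ep2_2, Ep2_3 or any 1 PBS column. None of these 6 lists held a gene called in PBS1 minus Ep1 by limma. At an unadjusted p under 0.05 they held 12 centrosome and centriole genes, 3 transition zone genes and 2 hedgehog genes, and voom called 1 gene of each of these 3 lists.

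Of 4 tested epithelial markers, 0 were higher and 2 lower in Ep2 than in Ep1 (50%, against 27.4% of all genes). NKX2-1, a transcription factor of lung epithelium, averaged 9.36 ± 1.71 FPKM in Ep2 and 14.4 ± 1.37 FPKM in Ep1, a log2 difference of -0.58 ± 0.109 (adjusted p = 0.00667). KRT8, a keratin, averaged 138 ± 6.25 FPKM in Ep2 and 180 ± 24.3 FPKM in Ep1, a difference of -0.37 ± 0.086 (adjusted p = 0.0128) that was lost without Ep2_3. In PBS1 minus Ep2, 3 of these markers were higher and 0 lower (75%, against 49.6% of all genes). The difference there was 0.64 ± 0.109 for NKX2-1 (adjusted p = 0.00122), 0.36 ± 0.086 for KRT8 (adjusted p = 0.00634) and 0.64 ± 0.091 for KRT19 (adjusted p = 0.0006). Over the 12 epithelial markers the summed level was 1152 to 1534 FPKM in Ep1, 1072 to 1245 FPKM in Ep2 and 1370 to 1600 FPKM in PBS1. Of 5 endothelial markers TEK alone was above 1 FPKM. It was higher in Ep2 than in Ep1, at 0.26 ± 0.073 (adjusted p = 0.0245), a call lost without Ep1_1, Ep1_3, Ep2_2 or Ep2_3. TEK was highest in PBS1, and PBS1 minus Ep1 gave 0.38 ± 0.073 (limma adjusted p = 0.0606). Voom called that difference, as it did 4.62% of all genes. PBS1 minus Ep2 gave 0.12 ± 0.073 (limma adjusted p = 0.208). The summed level of the list was 12.0 to 13.0 FPKM in Ep1, 13.9 to 16.0 FPKM in Ep2 and 15.6 to 17.7 FPKM in PBS1. Fibroblast markers summed to 2.78 to 3.66 FPKM in Ep1, 2.48 to 3.24 FPKM in Ep2 and 1.98 to 3.73 FPKM in PBS1. Leukocyte markers summed to 1.75 to 2.75 FPKM in Ep1, 1.46 to 2.78 FPKM in Ep2 and 1.52 to 2.17 FPKM in PBS1. The part of these levels in the differences of the centrosome and cilium genes was not tested.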

How the data were processed

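RNA of 9 libraries in 3 groups of 3 was analysed from the table that the authors deposited, whose values are FPKM per the file headers. Groups were taken from the titles. Bowtie 0.12.2 and the mouse build mm8 are named per the submitters' processing notes, whereas the table lists ferret scaffolds, so the build is not settled and no coordinates or sequences are printed. How fragments were counted, with or without strand, and how shared reads were treated is not given in the sources used here, so paralogs such as CEP57 and CEP57L1 or CEP170 and CEP170B, and genes overlapped by an antisense partner, may share reads.

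Multiplied by gene length, 100% of the values above 0 came out as whole fragments within 0.02, and the size of 1 fragment gave the depth. The fragments of the listed genes summed to 98.92% to 99.888% of that depth. Between replicates the chi-square per degree of freedom was 2.73 to 10.9, so none was a duplicate.

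limma 3.58.1 in R 4.3.3 was fitted with an intensity trend across all genes that reached 1 FPKM in 3 or more libraries, on log2(FPKM + 1), with 1 mean per group, no block and Benjamini-Hochberg adjustment over the 11840 tested genes. The fit was tested on simulated data. Alternatives were pseudocounts of 0.1 and 0.5, no filter, a minimum of 5 FPKM, quantile normalization, equal library medians, removal of the length trend, no intensity trend, limma voom on the recovered fragments, a fit to 6 libraries alone, a replicate block, each library left out and, added after the data were seen, Ep1_1 and Ep2_1 both left out. Members, roles and lists were chosen with earlier results of these data known. All members were analysed, and 1 of them is not reported here. Library values are given for those called and the most abundant of each role, and values for up to 4 called genes of each other list, beside those said to be chosen after their values were seen.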

Additional observations from a re-analysis of the deposited data

How the results depend on the processing

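Over the alternatives run, no called difference changed sign. In Ep2 minus Ep1, CEP genes called numbered 9, but 4 with no filter on low values and 4 to 11 with each library left out, where all genes called ranged from 1258 to 3417, the CEP median of 0.094 ranged from 0.077 to 0.149, and the IFT and BBS median of 0.078 ranged from 0.011 to 0.102, with 0.025 when Ep1_1 and Ep2_1 were both left out. In PBS1 minus Ep1, all genes called numbered 17, but 0 with no filter, 79 with a minimum of 5 FPKM, 38 with the length trend removed, 11 with no intensity trend, 547 with voom, 2294 without Ep1_1 and Ep2_1, and 0 to 1887 with each library left out. CEP genes called there numbered 1 with voom, 7 without Ep1_1 and Ep2_1, and 0 to 7 with each library left out, the CEP median of -0.074 was -0.046 with the length trend removed and -0.118 to -0.026 with each library left out, and IFT and BBS genes called numbered 1, 3 and 0 to 3, with a median of -0.115 without those 2 libraries and of -0.115 to -0.022 with each library left out. In PBS1 minus Ep2, the CEP median of -0.217 was -0.252 with a pseudocount of 0.1, -0.253 with voom and -0.256 to -0.171 with each library left out. The voom fit and the smaller pseudocount weigh low genes differently by construction. The cause of the other shifts was not tested.

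Same-numbered Ep1 and Ep2 libraries deviated together at correlations of 0.152, 0.072 and 0.065 across genes, against -0.127 to 0.073 for other pairs, so the numbers were not taken as pairs. Ep1_2 correlated slightly better with Ep2_3 than with Ep2_2. The replicate block in Ep2 minus Ep1 called 2974 genes, 7 CEP genes and 5 IFT or BBS genes, with CEP135, CEP162 and CEP192 lost and CEP63 gained. The lowest tested depth among these genes was 42 to 72 fragments, for BBS1, whose standard error was 0.131.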
